A study of Mus musculus with 6 samples.

Results

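Neurexins are adhesion proteins of the presynaptic membrane, and neuroligins and leucine-rich repeat transmembrane proteins (LRRTMs) are their partners across the cleft. Binding between the 2 sides holds the membranes together and helps to gather release machinery on one side and receptors on the other. In the hippocampus, neuroligin-1 is best known from excitatory synapses, neuroligin-2 from inhibitory synapses and neuroligin-3 from both, whereas LRRTMs are mainly described at excitatory synapses. The genes described here are 9 of the 20234 genes in the deposited table. They are the neurexin genes Nrxn2 and Nrxn3, the neuroligin genes Nlgn1, Nlgn2 and Nlgn3, and Lrrtm1, Lrrtm2, Lrrtm3 and Lrrtm4. They were chosen as families by name, not by any measured value.

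The CA1 region of the hippocampus was taken from male wild-type C57Bl6 mice at postnatal day 28. Placebo was given to 3 mice (numbers 1, 3 and 5) and erythropoietin (EPO, 5000 IU/kg) to 3 mice (numbers 2, 4 and 6), each as a single intraperitoneal injection 6 h before the tissue was taken. Single cells were captured by Drop-seq, in which each RNA molecule is counted by a unique molecular identifier (UMI). A mouse is the replicate throughout. Of 6000 barcodes, 973 with more than 1000 and up to 8000 genes and at most 40% of UMIs from mitochondrial (mt-) genes were retained, 390 from placebo and 583 from EPO mice. Each mouse gave between 43 cells (placebo mouse 3) and 271 cells (EPO mouse 4), 204479 to 1948490 UMIs in all, a median of 4088 to 4924 UMIs per cell and a median mt- share from 3.58% to 18.3%. The 9 genes together held 7510 of the 6910600 retained UMIs, from 169 UMIs of Lrrtm3 to 2245 UMIs of Nrxn3, and a cell held a median of 4 of them.

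Gene positions were read from the GENCODE annotation of GRCm38, the build that the submitters call mm10. Nrxn2 lies on chromosome 19 (6418731 to 6544169, plus strand) and Nrxn3 on chromosome 12 (88722876 to 90334935, plus strand). Nlgn1 lies on chromosome 3 (25426215 to 26332460, minus strand), Nlgn2 on chromosome 11 (69823122 to 69837784, minus strand) and Nlgn3 on chromosome X (101299168 to 101325963, plus strand). Lrrtm1 (chromosome 6, 77242689 to 77257791), Lrrtm2 (chromosome 18, 35209003 to 35215024) and Lrrtm3 (chromosome 10, 63928472 to 64090277) each lie wholly inside an alpha-catenin gene of the opposite strand, Ctnna2, Ctnna1 and Ctnna3. Lrrtm4 lies on chromosome 6 (80018877 to 80810143, plus strand). For Lrrtm2, 3 of 5 annotated exons overlap an exon of Ctnna1, and for Lrrtm1 and Lrrtm3 none of 9 exons overlaps one of the host. For Nlgn3, 26 of 32 annotated exons overlap exons of Gm21986, a processed transcript of the same strand, so that its values are uncertain in the same way. For Lrrtm4, 8 of 23 exons overlap the antisense gene Gm4409, for Nrxn2 8 of 195 overlap Gm14964 and 1 overlaps Slc22a12, and for Nlgn1 2 of 28 overlap A830092H15Rik, all on the opposite strand. How the counting used strand is not given in the sources used here.

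A fact about the libraries precedes all values. Among retained cells, 26 barcode sequences occurred in both placebo mouse 1 and EPO mouse 4, which makes 52 cells. The paired profiles had a median correlation of 0.739, against 0.250 for other pairs of cells from these mice, and 26 of 26 pairs fell into the same class. Placebo mouse 1 and EPO mouse 4 are therefore not fully separate at these cells, and every comparison was repeated without them.

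The LRRTM genes carried the clearest contrast among excitatory neurons, described further on, so the 250 bases before an annotated start are shown for 3 of them. They are from RefSeq (GRCm38.p6), 5′ to 3′ on the gene's strand. Capitals mark matches to TATAAA on either strand. Such a match occurs in 12.4% of all 32851 windows of this length. The windows lie at chr6:77242227-77242476 (Lrrtm1, plus strand), chr10:64090256-64090505 (Lrrtm3, minus strand) and chr6:80018627-80018876 (Lrrtm4, plus strand, the first of 2 annotated starts).
Lrrtm1: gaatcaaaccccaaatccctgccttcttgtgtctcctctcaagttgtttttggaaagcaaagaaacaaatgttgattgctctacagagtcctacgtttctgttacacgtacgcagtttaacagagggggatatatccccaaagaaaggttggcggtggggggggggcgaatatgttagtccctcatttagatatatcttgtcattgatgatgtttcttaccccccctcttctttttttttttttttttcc
Lrrtm3: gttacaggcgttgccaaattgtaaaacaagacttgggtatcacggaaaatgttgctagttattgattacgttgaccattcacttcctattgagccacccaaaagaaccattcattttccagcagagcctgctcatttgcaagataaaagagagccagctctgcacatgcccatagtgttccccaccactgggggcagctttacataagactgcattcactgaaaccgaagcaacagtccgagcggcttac
Lrrtm4: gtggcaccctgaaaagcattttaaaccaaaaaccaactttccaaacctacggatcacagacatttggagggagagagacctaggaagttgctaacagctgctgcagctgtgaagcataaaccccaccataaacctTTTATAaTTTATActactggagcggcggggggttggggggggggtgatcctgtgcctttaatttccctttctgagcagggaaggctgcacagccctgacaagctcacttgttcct
Only the Lrrtm4 window held the match, in 2 copies on the strand opposite to the gene. None of these windows held GGGCGG, which 32.7% of all windows hold, or TGACGT, which 6.47% hold, on either strand. Their share of G and C was 42% for Lrrtm1, 46.0% for Lrrtm3 and 49.2% for Lrrtm4, below the median of 52.4% over all windows. Windows from RefSeq were used for 6 of the 9 genes, and Lrrtm2 was not among them. For Nrxn3 RefSeq listed 3 starts spread along the gene, and for Nlgn1 it listed 2.

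Cells were clustered without the 9 genes and without 71 related genes of the lists used here, so that no class was defined by what is compared. Named from marker genes, 619 cells in 6 clusters were glutamatergic-like, 129 oligodendrocyte-like, 77 astrocyte-like, 53 GABAergic-like, 39 endothelial-like, 38 oligodendrocyte precursor (OPC)-like and 18 microglia-like. Of the glutamatergic-like cells, 393 in 4 clusters carried CA1 pyramidal markers most strongly (1207 CPM summed over 6 markers, against 631 CPM in the rest). The other 226, in clusters 0 and 5, carried subiculum markers most strongly (1218 CPM over 4 markers, against 37.6 CPM in CA1 pyramidal-like cells), although the labels name CA1 alone. Markers of deep cortical layers were also higher there (364 against 153 CPM over 6 markers). That list includes Tle4 and Hs3st4, which the paper names among the markers of its immature glutamatergic cluster. Clusters 0 and 5 differed in these lists. As a mean log2 level relative to all clusters, subiculum and deep-layer markers stood at 3.22 and 0.69 in cluster 5. In cluster 0, with 141 cells, they stood closer together, at 1.70 and 1.08. Blood markers were at 1867 CPM in the other glutamatergic-like cells and 221 CPM in CA1 pyramidal-like cells (5 markers), but 1 cell of placebo mouse 1 held 3065 of these UMIs, and without it the former level was 188 CPM. The other glutamatergic-like cells held more oligodendrocyte markers (1970 against 1128 CPM over 8), the GABAergic-like cells held 2115 CPM of mural markers and the astrocyte-like cells 1211 CPM of ependymal markers. The part of these in the values was not tested. Levels are in CPM, a gene's UMIs per 1000000 UMIs of the same cells. CPM counts molecules captured at their 3′ ends, so long and short forms made from separate start sites of a neurexin gene are summed.

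Nrxn3 set the neuron classes apart most among the neurexins. GABAergic-like cells of placebo mice 1 and 5 held 601 and 1635 CPM, and those of EPO mice 2, 4 and 6 held 1444, 1161 and 1076 CPM (mean 1184 ± 395 SD, n = 5). Glutamatergic-like cells of the same 5 mice held 348 ± 33.9 CPM. The lowest GABAergic-like value exceeded the highest glutamatergic-like value of these mice (393 CPM in EPO mouse 2). Placebo mouse 3 gave 1 GABAergic-like cell and was left out of this comparison. Nrxn3 was lower in glutamatergic-like cells by edgeR's quasi-likelihood test with mouse as a block (log2 fold change -1.82 ± 0.28 SE, adjusted p = 6.9e-09), in 5 of 5 mice. In this comparison 12.6% of 6232 genes passed an adjusted p under 0.05 (7.8% higher and 4.78% lower in glutamatergic-like cells), and of the 9 genes, all tested, 1 was higher and 1 lower.

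Outside neurons Nrxn3 was low. The 6 mice held between 0 and 36.5 CPM in oligodendrocyte-like cells (13.1 ± 12.4 SD) and between 0 and 87.4 CPM in astrocyte-like cells (36.8 ± 41.1 SD), against 308 to 503 CPM in glutamatergic-like cells (374 ± 70.2 SD). It was higher in glutamatergic-like cells in 6 of 6 mice in both comparisons (log2 fold change 4.25 ± 0.31 SE against oligodendrocyte-like and 2.57 ± 0.43 SE against astrocyte-like cells, edgeR adjusted p = 3.2e-20 and 1.4e-06). After each cell was thinned to 1500 UMIs, 69.8% of GABAergic-like cells (95% exact interval 55.7% to 81.7%) and 37.0% of glutamatergic-like cells (33.2% to 40.9%) carried Nrxn3. Without thinning these shares were 84.9% and 73.0%, at medians of 4818 and 5233 UMIs per cell. None of 57 endothelial-like and microglia-like cells, which should lack the gene, carried it after thinning. With 3 cells as the limit of a count of 0 this allows a share of up to 5.26%, and the exact 95% upper bound is 6.27%. Unthinned, 7.02% of them carried it at a median of 2662 UMIs. All cells passed 1500 UMIs, and these intervals cover counting error only.

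Nrxn2 was spread more evenly. Its mean was 187 ± 42.2 CPM (SD, n = 5) in glutamatergic-like cells and 205 ± 28.4 CPM in GABAergic-like cells of the same mice, higher in glutamatergic-like cells in 2 of 5 mice (log2 fold change -0.26 ± 0.33 SE, edgeR adjusted p = 0.737). Placebo mice 1, 3 and 5 held 240, 203 and 175 CPM in astrocyte-like cells, against 223, 182 and 171 CPM in glutamatergic-like cells. EPO mice 2, 4 and 6 held 140, 252 and 288 CPM, against 120, 214 and 206 CPM. The ranges of the 2 classes overlapped, but within each of the 6 mice the astrocyte-like value was the higher. Nrxn2 passed the test as lower in glutamatergic-like cells (log2 fold change -0.73 ± 0.29 SE, edgeR adjusted p = 0.0289). The call was lost with total UMIs as the scale (-0.19, adjusted p = 0.573), and without a filter on low counts the value turned to 0.025 (adjusted p = 0.956). It was also lost with DESeq2 (adjusted p = 0.0979) and its size factors in edgeR (0.113), with at most 20% mt- UMIs (0.161), with at least 10 cells per mouse (0.313), and without placebo mouse 1 (0.0738), placebo mouse 3 (0.378), EPO mouse 4 (0.0892) or EPO mouse 6 (0.143). The median gene of this comparison lay at 0.19 with trimmed-mean (TMM) scaling and at 0.72 with total UMIs, and relative to it Nrxn2 lay at -0.92 and -0.91. In oligodendrocyte-like cells Nrxn2 was at 15.2 to 77.5 CPM and lower than in glutamatergic-like cells in 6 of 6 mice (log2 fold change of glutamatergic-like against oligodendrocyte-like cells 1.54 ± 0.25 SE, edgeR adjusted p = 1.2e-07).

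The makeup of the neurexin pair therefore differed by class. Summed over mice, there were 5.74 Nrxn3 UMIs per Nrxn2 UMI in GABAergic-like cells, 1.84 in glutamatergic-like cells, 0.265 in oligodendrocyte-like cells and 0.19 in astrocyte-like cells. This ratio does not depend on how libraries are scaled. In the 3328 barcodes with at most 200 genes, which were not retained, Nrxn3 was at 203 CPM and Nrxn2 at 90.6 CPM.

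**Figure D1:**
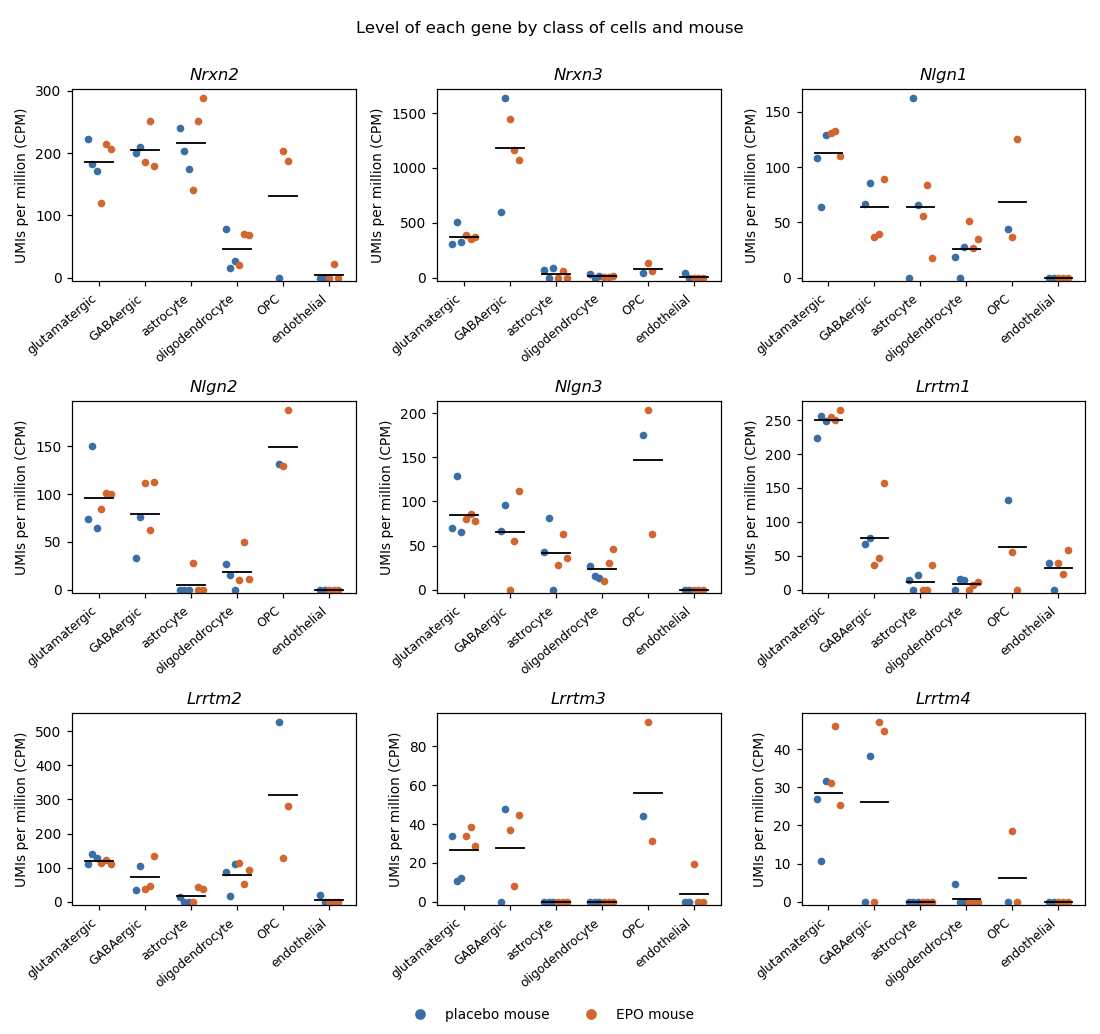
CPM (y axis) of each gene in the classes of cells (x axis), one point per mouse with at least 5 cells of the class and a line at their mean. Nrxn3 stands highest in GABAergic-like cells (601 to 1635 CPM), Lrrtm1 in glutamatergic-like cells (223 to 265 CPM) and Lrrtm2 in OPC-like cells (129 to 527 CPM), and Lrrtm3 and Lrrtm4 are at 0 in every mouse in astrocyte-like cells.

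Among the neuroligins, all 3 were higher in glutamatergic-like than in oligodendrocyte-like cells. In this comparison 65% of 4656 genes tested were called (35.8% higher and 29.2% lower), and of 7 genes of the 9 that passed the filter on low counts, 6 were higher and none lower. A gene can pass this filter through only the class where it is high, so that count is not separate support. In glutamatergic-like cells Nlgn1 was at 108, 64.2 and 129 CPM for placebo mice 1, 3 and 5 and at 131, 133 and 110 CPM for EPO mice 2, 4 and 6, against 0 to 51 CPM in oligodendrocyte-like cells. The groups did not overlap (log2 fold change 1.86 ± 0.32 SE, edgeR adjusted p = 5.9e-07). Nlgn2 (95.6 ± 30.3 against 19.0 ± 17.4 CPM, SD, n = 6) and Nlgn3 (84.4 ± 22.8 against 23.7 ± 13.4 CPM) differed in the same direction in 6 of 6 mice (log2 fold changes 1.53 and 1.37, edgeR adjusted p = 8.5e-05 and 0.000433).

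Between the neuron classes no neuroligin passed the test. Nlgn1 was at 122 ± 12.3 CPM in glutamatergic-like and 63.8 ± 25 CPM in GABAergic-like cells, higher in the former in 5 of 5 mice (log2 fold change 0.86 ± 0.43 SE, edgeR adjusted p = 0.213). Nlgn2, the neuroligin of inhibitory synapses, was at 84.7 ± 16.1 and 79.2 ± 33.4 CPM (log2 fold change 0.03 ± 0.43 SE, adjusted p = 0.986), and Nlgn3 at 75.6 ± 8.25 and 65.9 ± 43.3 CPM (-0.02 ± 0.43 SE, adjusted p = 0.996). These values rest on 21 to 25 UMIs per neuroligin in GABAergic-like cells. Astrocyte-like cells held unequal counts of the family. Only 1 UMI of Nlgn2 was found among 279949 UMIs, against 11 of Nlgn3 and 14 of Nlgn1. Pooled over mice, Nlgn2 was 24.6 times higher in glutamatergic-like than in astrocyte-like cells (95% counting interval 4.4 to 975). None of the neuroligins passed the filter on low counts in that comparison. Of the alternatives, 3 tested them, namely no filter, at least 10 cells per mouse and class, and leaving out placebo mouse 3. Nlgn1 was higher in glutamatergic-like cells in all 3 (log2 fold changes 1.41, 1.65 and 1.47, edgeR adjusted p = 0.0169, 0.0157 and 0.0166). Nlgn2 was as well (4.77, 3.98 and 4.17, edgeR adjusted p = 8.7e-07, 0.000456 and 0.000102). Nlgn3 was not called (1.29, 0.68 and 0.95, edgeR adjusted p = 0.059, 0.404 and 0.203).

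Lrrtm1 was even across mice in glutamatergic-like cells. Placebo mice 1, 3 and 5 held 223, 257 and 249 CPM, and EPO mice 2, 4 and 6 held 254, 250 and 265 CPM (250 ± 14.2 SD, n = 6). It was higher there than in oligodendrocyte-like cells (7.85 ± 6.74 CPM SD, log2 fold change 5.04 ± 0.39 SE, edgeR adjusted p = 3.6e-19) and astrocyte-like cells (12 ± 14.9 CPM, 3.60 ± 0.56 SE, adjusted p = 3.5e-07), in 6 of 6 mice each. GABAergic-like cells of placebo mice 1 and 5 held 66.8 and 76.5 CPM and those of EPO mice 2, 4 and 6 held 37, 47.1 and 157 CPM. All lay below every glutamatergic-like value (log2 fold change 1.65 ± 0.39 SE, edgeR adjusted p = 0.000556). Between these neuron classes Lrrtm2 (117 ± 8.53 against 71.4 ± 45.7 CPM, log2 fold change 0.58 ± 0.42 SE, adjusted p = 0.458), Lrrtm3 (-0.13 ± 0.61 SE) and Lrrtm4 (-0.09 ± 0.57 SE) did not pass the test. In the comparison with astrocyte-like cells 57.5% of 1559 genes were called (33.8% higher and 23.7% lower). Of 3 genes of the 9 that could be tested, Nrxn3 and Lrrtm1 were higher and Nrxn2 lower. Here too a gene can pass the filter on low counts through only the class where it is high, so that count is not separate support.

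Lrrtm2 did not follow Lrrtm1. Oligodendrocyte-like cells of placebo mice 1, 3 and 5 held 86.6, 15.2 and 110 CPM, and those of EPO mice 2, 4 and 6 held 112, 52.8 and 92.1 CPM, against 109 to 139 CPM in glutamatergic-like cells. The latter were higher within 6 of 6 mice, but the difference did not pass the test (log2 fold change 0.33 ± 0.25 SE, edgeR adjusted p = 0.256). With total UMIs as the scale it did (0.65, adjusted p = 0.018). The median gene lay at 0.13 and 0.45 with these scales, and relative to it Lrrtm2 lay at 0.20 in both. OPC-like cells held 527 CPM in placebo mouse 1, 129 in EPO mouse 4 and 281 in EPO mouse 6, on 28 UMIs in all, against 77.2 ± 21.3 CPM (SD, n = 3) in oligodendrocyte-like cells of these mice. All 3 precursor values were above those of the oligodendrocyte-like cells, but the gene did not pass the filter on low counts, and with no filter it was not called (log2 fold change 1.15 ± 0.55 SE, edgeR adjusted p = 0.401). Pooled over all mice the level was 370 CPM (95% counting interval 275 to 486) in the 38 OPC-like cells and 74.5 CPM (57.3 to 95.3) in the 129 oligodendrocyte-like cells. Of these 51 OPC-like UMIs, 23 came from 8 cells of the 3 mice with fewer than 5 such cells (790 CPM), and the 30 cells of the other mice were at 257 CPM. Thinned to 1500 UMIs, 31.6% of OPC-like cells (17.5% to 48.7%) carried Lrrtm2, against 9.30% of oligodendrocyte-like cells (4.90% to 15.7%) and 1.75% of endothelial-like and microglia-like cells. Unthinned the shares were 47.4%, 27.1% and 3.51%, at medians of 2821, 5194 and 2662 UMIs per cell. The OPC-like cluster also held 31939 CPM of summed oligodendrocyte markers, against 168847 CPM in oligodendrocyte-like cells, and genes of committed precursors (Gpr17, Bcas1, Enpp6) were among its leading genes.

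The values of the host gene Ctnna1 are set beside those of Lrrtm2. Ctnna1, an adaptor of cadherin junctions, was at 264 ± 72.4 CPM (SD, n = 6) in oligodendrocyte-like, 297 ± 246 in astrocyte-like and 19.8 ± 11.4 in glutamatergic-like cells, and was lower in the last against both (log2 fold changes -3.87 and -4.18, edgeR adjusted p = 1.9e-24 and 1.7e-12). Pooled over mice, Lrrtm2 was at 74.5 CPM in oligodendrocyte-like, 17.9 CPM (5 UMIs) in astrocyte-like and 118 CPM in glutamatergic-like cells. Whether reads of Ctnna1 entered the Lrrtm2 counts was not tested.

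Lrrtm3 and Lrrtm4 were hardly seen in mature glia. No UMI of Lrrtm3 was found among 845599 UMIs of oligodendrocyte-like cells or 279949 of astrocyte-like cells. Glutamatergic-like cells, with 148 UMIs or 29.2 CPM, were at least 8.23-fold higher than the former and at least 2.72-fold higher than the latter, taking 3 counts over each group as the limit of a count of 0. Lrrtm4 had 1 UMI in oligodendrocyte-like cells (ratio of glutamatergic-like to oligodendrocyte-like cells 27.8, 95% counting interval 4.93 to 1106) and none in astrocyte-like cells (at least 3.07-fold lower). Pooled over mice, OPC-like cells held 9 UMIs of Lrrtm3 or 65.2 CPM (95% counting interval 29.8 to 124), against none in oligodendrocyte-like cells. The point value is 18.4 times the limit of 3.55 CPM in the latter, a number that leaves out the counting error of the 9 UMIs. Those 9 UMIs sat in 15.8% of the 38 cells. In the comparisons with glia both genes were below the filter on low counts. With no filter edgeR called both higher in glutamatergic-like than in oligodendrocyte-like cells (adjusted p = 1.3e-08 for Lrrtm3 and 1.7e-07 for Lrrtm4) and than in astrocyte-like cells (0.00233 and 0.00149). Lrrtm2 was called higher than in astrocyte-like cells by the 3 alternatives that tested it, at log2 fold changes of 2.96 with no filter, 2.07 with at least 10 cells and 2.4 without placebo mouse 3 (edgeR adjusted p = 9.4e-06, 0.00536 and 0.000625). In OPC-like against oligodendrocyte-like cells, 26.3% of 1332 genes were called (11% higher and 15.3% lower), and none of the 9 genes reached the filter. With no filter none of them was called, Lrrtm3 having an adjusted p of 0.138.

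The question of where within glutamatergic neurons these genes differ was addressed by setting CA1 pyramidal-like cells against the other, subiculum marker-bearing cells of the same mouse. Lrrtm3 was nearly confined to the latter. Placebo mice 1, 3 and 5 held 84.2, 32.1 and 38.1 CPM there, against 6.6, 0 and 5.98 CPM in CA1 pyramidal-like cells. EPO mice 2, 4 and 6 held 77.3, 83 and 64.1 CPM, against 6.87, 1.34 and 7.02 CPM. The ranges did not overlap (log2 fold change -3.64 ± 0.36 SE, edgeR adjusted p = 1.6e-18). In placebo mouse 3 the values rest on 1 UMI against 0 UMIs, in 8 cells on each side. This mouse alone does not resolve a difference. In this comparison 18.3% of 6414 genes were called (9.46% higher and 8.82% lower in CA1 pyramidal-like cells). Of the 9 genes, 8 were tested, of which Lrrtm1 and Nlgn1 were higher and Lrrtm3 lower. A gene can pass the filter on low counts through only the part where it is high, so that count is not separate support. The log2 fold change of Lrrtm3 stayed between -3.99 and -2.92 over 17 alternatives, the highest adjusted p being 0.00124 with limma. It was -3.68 (edgeR adjusted p = 1.9e-12) without the 52 cells of shared barcodes. Not all of these are separate fits. Clustering at resolution 0.6 gave the main clusters again, and requiring at least 10 cells left out placebo mouse 3 alone.

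The CA1 pyramidal-like level of Lrrtm3, 5.24 CPM on 17 UMIs (95% counting interval 3.05 to 8.39), lay below that of barcodes with at most 200 genes (15.8 CPM, 7.90 to 28.3) and above the limit of 3.55 CPM that 0 UMIs allow in oligodendrocyte-like cells. Thinned to 1500 UMIs, 0.763% of CA1 pyramidal-like cells and 14.2% of the other glutamatergic-like cells (9.89% to 19.4%) carried the gene, against 1.75% of endothelial-like and microglia-like cells. Unthinned the shares were 3.56% and 31.0%, at medians of 5676 and 4719 UMIs per cell. Both clusters of the other glutamatergic-like cells carried it, cluster 0 with 65.1 CPM and cluster 5 with 75.6 CPM, whereas the 4 CA1 pyramidal-like clusters ranged from 3.53 to 7.42 CPM. Cluster 0 had a median mt- share of 21.3% and cluster 5 one of 4.93%. GABAergic-like cells held 9 UMIs of Lrrtm3 (26.8 CPM, 12.2 to 50.8), an interval that overlaps that of the low barcodes.

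**Figure D2:**
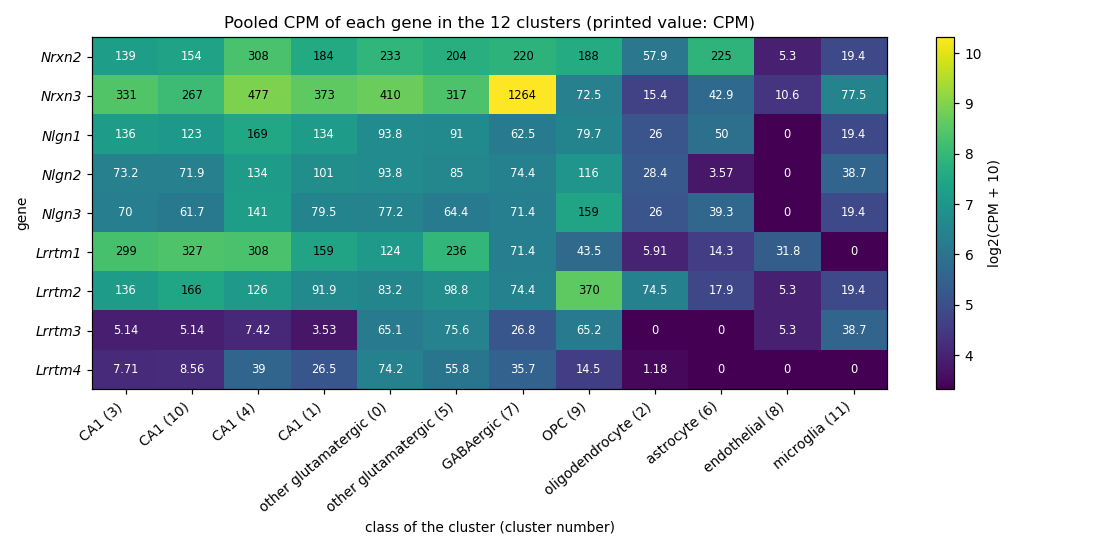
Pooled level (printed in CPM; colour, log2 of CPM + 10) of the 9 genes (rows) in the 12 clusters (columns, named by class with the cluster number). Lrrtm3 is at 3.53 to 7.42 CPM in the 4 CA1 pyramidal-like clusters and at 65.1 and 75.6 CPM in clusters 0 and 5, and Nrxn3 reaches 1264 CPM in the GABAergic-like cluster.

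Lrrtm4 had the same order, at 15.9 ± 3.38 CPM (SD, n = 6) in CA1 pyramidal-like and 51.6 ± 28.3 CPM in the other glutamatergic-like cells, higher in the latter in 5 of 6 mice. The exception was placebo mouse 3, with 0 UMIs in 8 cells. The gene did not pass the filter on low counts. The 4 alternatives that tested it called it lower in CA1 pyramidal-like cells, at log2 fold changes of -1.89 with no filter, -1.92 with at most 20% mt- UMIs, and -2.0 both with at least 10 cells per mouse and class and without placebo mouse 3 (edgeR adjusted p = 7.8e-09, 4.7e-06 and 1.3e-07). The last pair is the same fit, since placebo mouse 3, with 8 cells on each side, was the mouse left out by both. Within CA1 pyramidal-like cells its clusters were unlike, at 7.71 CPM in cluster 3 (led by Spink8, Hpca and Lefty1) and 39 CPM in cluster 4 (led by Thsd4, Plxna1 and Slit1). Those counts were 12 and 21 UMIs.

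Lrrtm1 ran opposite to Lrrtm3, with a far smaller difference. Placebo mice 1, 3 and 5 held 246, 289 and 258 CPM in CA1 pyramidal-like cells, against 180, 193 and 214 CPM in the others. EPO mice 2, 4 and 6 held 318, 309 and 277 CPM, against 151, 180 and 245 CPM. CA1 pyramidal-like cells were higher within 6 of 6 mice and the ranges did not overlap (log2 fold change 0.50 ± 0.16 SE, edgeR adjusted p = 0.0114). Nlgn1 was also higher (125 ± 42.5 against 92.2 ± 12.5 CPM SD, 5 of 6 mice, log2 fold change 0.55 ± 0.19 SE, adjusted p = 0.0207). Without EPO mouse 2 neither passed (Lrrtm1 0.40, adjusted p = 0.147; Nlgn1 0.43, adjusted p = 0.183), nor without EPO mouse 4 (0.41, adjusted p = 0.163; 0.51, adjusted p = 0.146). Without EPO mouse 6 Nlgn1 did not pass (adjusted p = 0.0678). With limma their adjusted p was 0.104 and 0.606, with DESeq2 that of Nlgn1 was 0.0777, and without cells of shared barcodes that of Lrrtm1 was 0.051. Both parts were mixed in Lrrtm1. Pooled over mice, CA1 pyramidal-like clusters 3, 10 and 4 held 299, 327 and 308 CPM but cluster 1 held 159 CPM, and of the others cluster 5 held 236 CPM and cluster 0 held 124 CPM. Cluster 10, led by Gapdh and ribosomal genes, came from placebo mouse 1 (15 cells) and EPO mouse 4 (22 cells) alone, the libraries that share barcodes. Mice with at least 5 cells in cluster 1 ranged from 49.8 to 256 CPM. Clusters 0 and 1 were also the ones with the highest median mt- share, 21.3% and 16.8%, whose part in this was not tested.

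**Figure D3:**
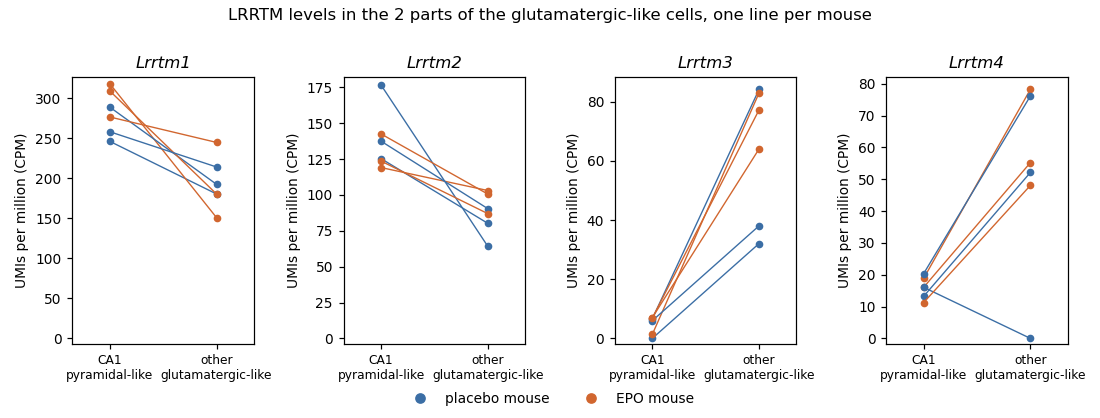
CPM (y axis) of the 4 LRRTM genes in CA1 pyramidal-like and in other glutamatergic-like cells (x axis), each line joining the values of 1 mouse. Lrrtm3 is at most 7.02 CPM on the left and at least 32.1 CPM on the right, the latter being 1 UMI in placebo mouse 3. Lrrtm1 and Lrrtm2 lie lower on the right in every mouse.

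Lrrtm2 was at 137 ± 21.2 CPM in CA1 pyramidal-like and 87.6 ± 14.3 CPM in the other glutamatergic-like cells, higher in the former in 6 of 6 mice. It missed the threshold (log2 fold change 0.48 ± 0.18 SE, edgeR adjusted p = 0.0515) and passed it with at most 20% mt- UMIs (0.52, adjusted p = 0.0302), with total UMIs as the scale (0.51, adjusted p = 0.0456) and without shared barcodes (0.58, adjusted p = 0.0297). The neurexins did not pass, with Nrxn2 at 160 ± 52.2 and 238 ± 87.0 CPM (-0.35 ± 0.16 SE, adjusted p = 0.132) and Nrxn3 at 388 ± 105 and 341 ± 53.2 CPM (0.04 ± 0.15 SE, adjusted p = 0.920). Nlgn2 (0.04 ± 0.20 SE) and Nlgn3 (0.26 ± 0.21 SE) did not pass either.

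The composition of the 9 genes gives these levels on a scale that needs no library size. Lrrtm3 made up 0.41% of their UMIs in CA1 pyramidal-like and 5.80% in the other glutamatergic-like cells, and Lrrtm1 made up 22.1% and 15.8%. Nrxn3 made up 66.5% in GABAergic-like cells against 27.9% in glutamatergic-like cells. Nrxn2 made up 57.3% in astrocyte-like cells. Lrrtm2 made up 33.3% in OPC-like and 31.7% in oligodendrocyte-like cells, on 153 and 199 UMIs in all, so that the higher CPM of Lrrtm2 in OPC-like cells was not seen as a higher share of the 9 genes.

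Set against each other, UMIs of the presynaptic pair and of the 7 postsynaptic partners gave a ratio that differed between the neuron classes. In glutamatergic-like cells it was 0.824, 0.901 and 0.727 for placebo mice 1, 3 and 5 and 0.703, 0.722 and 0.803 for EPO mice 2, 4 and 6 (0.780 ± 0.0764 SD, n = 6). GABAergic-like cells lay at 1.81 to 6.29 (3.84 ± 1.70 SD, n = 5) and every one of their mice lay above every glutamatergic-like value. Astrocyte-like cells lay at 0.833 to 4.4 (2.24 ± 1.31 SD, n = 6) on 75 neurexin and 35 partner UMIs, overlapping both neuron classes. Oligodendrocyte-like cells lay lowest of the classes with 6 mice, at 0.167 to 0.694 (0.372 ± 0.192 SD). CA1 pyramidal-like (0.737 ± 0.0972 SD) and other glutamatergic-like cells (0.864 ± 0.0767 SD) overlapped. In the glutamatergic-like cells EPO mice lay at 0.743 ± 0.0529 and placebo mice at 0.817 ± 0.0873 (SD, n = 3 each), which overlap. These ratios are descriptions of summed 3′ tags of genes that are not captured equally, and carry no test.

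**Figure D4:**
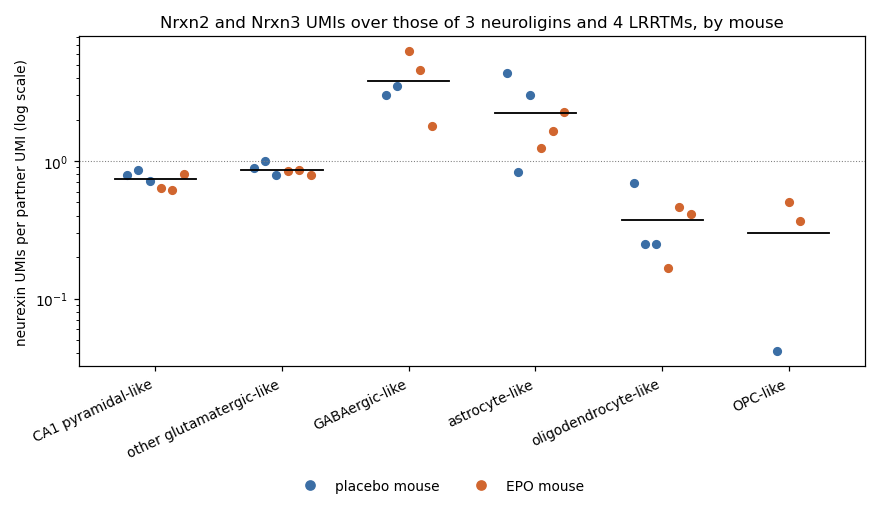
Nrxn2 and Nrxn3 UMIs per UMI of the 7 neuroligin and LRRTM genes (y axis, log scale) by class of cells (x axis), one point per mouse and a line at the mean. GABAergic-like cells lie at 1.81 to 6.29 and oligodendrocyte-like cells at 0.167 to 0.694, on either side of the glutamatergic-like cells.

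No difference between EPO and placebo mice passed the test for any of the 9 genes. Over all retained cells, 0 of 10043 genes were called by edgeR (0% in either direction, with 127 at an unadjusted p under 0.05, and 1 by DESeq2), and in glutamatergic-like cells 0 of 8522 (0%, with 158 at an unadjusted p under 0.05, and 0 by DESeq2). None of the 9 genes was called in any alternative. Over all cells of placebo mice 1, 3 and 5 Nrxn3 was at 227, 235 and 397 CPM, and EPO mice 2, 4 and 6 held 334, 326 and 342 CPM, so that the EPO mice lay inside the placebo range (log2 fold change 0.18 ± 0.24 SE). Nrxn2 was at 176, 142 and 165 CPM after placebo and 103, 190 and 197 CPM after EPO (-0.06 ± 0.26 SE). Fewer cells of a type and less RNA per cell cannot be told apart in such sums.

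How often the values of 3 EPO and 3 placebo mice fail to overlap was not counted over all genes tested. Among the partners, only those of Lrrtm3 did not overlap over all cells, and placebo mouse 3 held 3 UMIs of it. Placebo mice 1, 3 and 5 held 24, 14.7 and 13.9 CPM, and EPO mice 2, 4 and 6 held 27.3, 30.3 and 26 CPM (17.5 ± 5.61 against 27.9 ± 2.21 SD, log2 fold change 0.57 ± 0.34 SE, unadjusted p = 0.129, edgeR adjusted p = 1.00). The other glutamatergic-like cells, which hold this gene, made up 22.2%, 15.2% and 16.2% of the UMIs of those placebo mice and 28.6%, 32.1% and 31.5% of those of the EPO mice. The part of this share in the Lrrtm3 values was not tested. Inside the other glutamatergic-like cells, the placebo mice (32.1 to 84.2 CPM) and the EPO mice (64.1 to 83.0 CPM) overlapped. Over all glutamatergic-like cells they held 19.1 ± 13.0 and 33.8 ± 4.98 CPM (SD, n = 3 each, log2 fold change 0.64 ± 0.41 SE), and overlapped too.

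The remaining values after EPO lay within the placebo range or overlapped it. Over all cells Nlgn1 was at 74.6, 48.9 and 116 CPM after placebo and 109, 103 and 99.5 CPM after EPO. Nlgn2, with the second highest fold change, was at 56.9, 73.4 and 58.0 CPM after placebo and 68.4, 86.2 and 91.6 CPM after EPO (0.37 ± 0.25 SE). Lrrtm1 was at 147, 122 and 209 CPM and 192, 182 and 227 CPM, whereas within glutamatergic-like cells it was at 243 ± 17.8 and 256 ± 7.37 CPM (SD, n = 3 each, 0.05 ± 0.20 SE). Over all cells the log2 fold change was above 0 for 8 of the 9 genes (median 0.26), against 49.3% of all genes tested, and in glutamatergic-like cells for 6 of 9 (median 0.05), against 50.3%. Glutamatergic-like cells made up 45.7% to 80.9% of UMIs in placebo mice and 70.3% to 82.8% in EPO mice. The part of this share in the all-cell values was not tested.

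The labels give each mouse a D number, whose meaning is not stated, D1 for mice 1, 2 and 3 and D2 for mice 4, 5 and 6. Within D1 the EPO mouse lay above the mean of the placebo mice for 4 of the 9 genes in glutamatergic-like cells and within D2 the mean of the EPO mice lay above the placebo mouse for 7, with 3 genes in both. Over all cells these numbers were 7, 5 and 3. With the D number as a block none of the 9 genes was called.

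**Figure D5:**
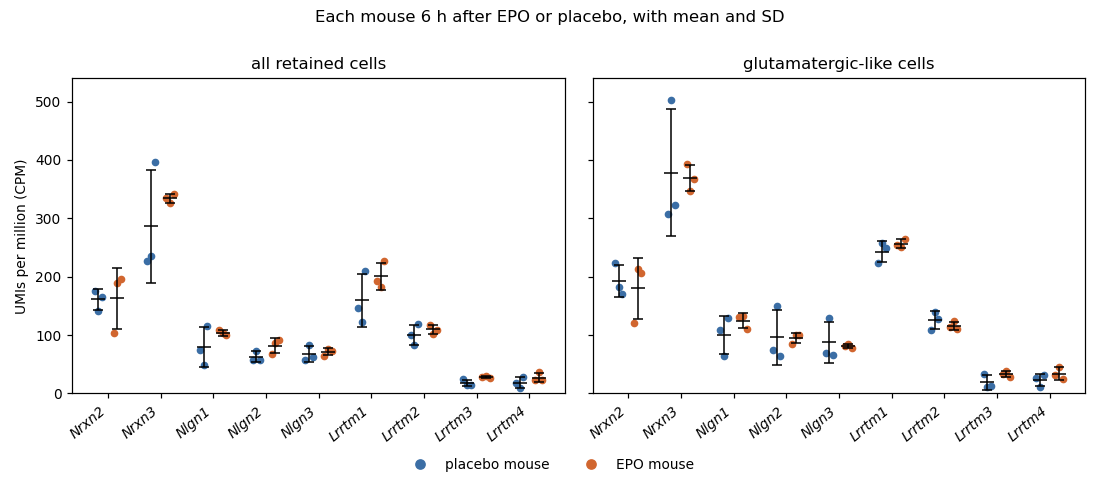
CPM (y axis) of the 9 genes (x axis) in each placebo and EPO mouse, with the mean and SD of 3 mice, over all retained cells (left) and in glutamatergic-like cells (right). The groups overlap for every gene except Lrrtm3 over all cells (13.9 to 24.0 CPM after placebo, 26.0 to 30.3 CPM after EPO). The share of all genes tested whose groups do not overlap was not counted.

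Other genes of trans-synaptic adhesion were taken as lists. Between glutamatergic-like and GABAergic-like cells their counts stand beside the 12.6% of all genes tested that were called. A gene can pass the filter on low counts through only the class where it is high. Counts of direction in the lists are therefore not separate support. Of 10 neurexin ligands and bridging proteins, 4 were tested between glutamatergic-like and GABAergic-like cells, with 1 higher and 2 lower in the former. Nxph1, a secreted ligand of neurexins, was at 1.11 ± 1.52 against 132 ± 98 CPM (SD, n = 5, log2 fold change -6.51, edgeR adjusted p = 2.7e-28). C1ql3, a secreted C1q-domain protein that binds neurexins and Adgrb3, was at 205 ± 59.9 against 3.48 ± 4.81 CPM (5.10, adjusted p = 8.9e-12). Clstn3, a calsyntenin, was lower in glutamatergic-like cells (-0.85, adjusted p = 0.0481). Of 7 other presynaptic adhesion receptors 5 were tested, with Adgrl2 higher (1.58, adjusted p = 0.00558).

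Of 26 other postsynaptic adhesion proteins 20 were tested between the neuron classes, and Cadm2 (1.59) and Slitrk5 (1.55) were higher and Tenm1 (-1.30) lower in glutamatergic-like cells, while the median over the list was 0.19 against 0.13 over all genes. Of 18 scaffolds 16 were tested, 3 higher and 1 lower, among them Homer1, which links glutamate receptors to the postsynaptic density (1.91, adjusted p = 2.7e-05), and the neurexin-binding adaptor Apba1 (-1.64, adjusted p = 0.00239). Of 7 regulators 4 were tested, and Khdrbs3, whose protein SLM2 sets neurexin splicing, was higher in glutamatergic-like cells (204 ± 26.1 against 39.2 ± 22.3 CPM, 2.39, adjusted p = 8.4e-06).

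Between CA1 pyramidal-like and the other glutamatergic-like cells, where 18.3% of all genes tested were called, Cbln2, a cerebellin that bridges neurexins to postsynaptic glutamate delta receptors, had the same direction as Lrrtm3. It had no UMI in CA1 pyramidal-like cells and 79 UMIs (43.3 CPM) in the others, which is at least 46.8-fold higher. It was one of 2 bridging proteins called lower of 4 tested, with Clstn3 (-0.54, edgeR adjusted p = 0.00634). Without a UMI in CA1 pyramidal-like cells, Cbln2 could pass the filter on low counts only through the others, so its direction is not separate support. Among 6 presynaptic receptors tested, 3 were lower and 1 higher, with the receptor phosphatase Ptprd (214 ± 29.5 against 520 ± 104 CPM, -1.24, adjusted p = 2.1e-13) and netrin-G1, Ntng1 (36.6 ± 24.0 against 193 ± 174 CPM, -1.74, adjusted p = 8.7e-13), lower in CA1 pyramidal-like cells in 6 of 6 mice. Among 20 postsynaptic adhesion proteins 2 were higher and 5 lower. Slitrk5 was higher (187 ± 34.3 against 90.3 ± 17.8 CPM, 0.95, adjusted p = 5.7e-06) and Flrt1 lower (49.0 ± 20.2 against 112 ± 27.7 CPM, -1.13, adjusted p = 1.5e-06). Of 17 scaffolds 5 were higher and 2 lower, Homer1 being higher (0.74, adjusted p = 4.6e-05) and Dlg1 lower (-1.40, adjusted p = 5.8e-09). Of 5 regulators Khdrbs2 was lower (-1.29, adjusted p = 0.000294).

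Against oligodendrocyte-like cells 65% of all genes tested were called, 35.8% higher and 29.2% lower in glutamatergic-like cells. There 16 of 16 tested postsynaptic adhesion proteins, of 26 listed, were higher in glutamatergic-like cells, led by the teneurin gene Tenm2 (493 ± 40.7 against 13.5 ± 10.2 CPM, log2 fold change 5.07, edgeR adjusted p = 6.8e-24), as were 3 of 3 bridging proteins, 4 of 5 presynaptic receptors and 9 of 13 scaffolds. A gene can pass the filter on low counts through only the class where it is high, so these counts of direction are not separate support. Ptprd was the presynaptic receptor that went the other way, at 316 ± 29.8 CPM against 1494 ± 200 CPM in oligodendrocyte-like cells (-2.53, adjusted p = 7.7e-20). In the comparison with 26.3% of genes called, OPC-like cells held less of it than oligodendrocyte-like cells (183 ± 94.8 against 1544 ± 103 CPM, SD, n = 3, -3.37, adjusted p = 0.0013) and more Cadm2 (863 ± 527 against 159 ± 82.6 CPM, 2.07, adjusted p = 0.0267) and Cask (331 ± 176 against 61.6 ± 23.5 CPM, 2.02, adjusted p = 0.00908). Against astrocyte-like cells, where 57.5% of genes were called (33.8% higher and 23.7% lower), 5 of 9 tested postsynaptic adhesion proteins were higher and Cadm1 lower (295 ± 50.4 against 690 ± 246 CPM, -1.64, adjusted p = 1e-07). After EPO none of the lists held a called gene, in all cells or in glutamatergic-like cells.

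Genes whose level ran most like these over the 12 clusters were found by Pearson's r of log2(CPM + 10) among 5883 genes with at least 200 UMIs. The nearest to Nrxn3 were Rims1, a protein of the presynaptic active zone (r = 0.971), Clstn3 (0.964) and Gprasp1 (0.962). Among the nearest to Lrrtm1 were Nedd4l (0.973) and Herc3 (0.970), and the nearest to Nlgn1 were Rnf145 (0.963), the AMPA receptor gene Gria2 (0.956) and Cmip (0.956). Lrrtm3 ran with Ncald (0.905), Tshz3 (0.883) and Fam19a2 (0.878), and Lrrtm4 with Ntng1 (0.956), Scn1a (0.937) and Myo5a (0.921). Nlgn2 ran with Dusp8 (0.964), Rims2 (0.947) and Opcml (0.940), Nlgn3 with Slc22a17 (0.938), Cadm2 (0.913) and Zfp462 (0.912), Nrxn2 with Cluh (0.964), Grin3a (0.958) and 9330159F19Rik (0.945), and Lrrtm2 with Tmem167 (0.953), Trmt6 (0.938) and Zdhhc14 (0.927). Ncald and Tshz3 are themselves leading genes of clusters 5 and 0. Among the 9 genes, Lrrtm3 was least like Lrrtm1 (r = 0.06) and most like Lrrtm4 (r = 0.57). These 12 clusters share the 6 libraries, and the values are descriptions.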

How the data were processed

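The authors deposited raw UMI counts per gene and barcode of Drop-seq libraries, 1000 barcodes per mouse, not normalized. The submitters' processing notes name bcl2fastq 2.15, STAR 2.4.0 and mm10, and the annotation is not given in the sources used here. The 9 genes and the lists were chosen with earlier results of these data known. Cells were clustered with Seurat 5.3.0 (R 4.3.3): 1000 variable genes per treatment with 80 genes of the lists held out, canonical correlation anchors, 20 dimensions, resolution 1. No doublet caller was run. Clusters were named by the highest mean marker level relative to other clusters among lists with at least 3 markers seen. After the data were seen, blood markers were kept from naming a cluster, since 1 cell held 3065 of their 11764 UMIs.

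Counts were summed per mouse, or per mouse and class with at least 5 cells, and tested with edgeR 4.0.16 (TMM, filterByExpr, quasi-likelihood; mouse as a block between classes) with Benjamini-Hochberg adjustment over all genes tested. Calls are at an adjusted p under 0.05. CPM is over all UMIs of the cells. The tests were tried on simulated data. DESeq2 1.42.0, limma 3.58.1, other scales, filters and clusterings, and each mouse left out were alternatives. All 9 genes are named. Of each list, at most 3 genes with the smallest adjusted p under 0.05 are named per comparison, and the 3 genes most like each of the 9. Some genes that this rule names are not reported here. Gene names Adgrl1, Adgrl2 and Adgrl3 were matched to older symbols. Precision is limited by totals of 204479 to 1948490 UMIs per mouse.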

Additional observations from a re-analysis of the deposited data

Results flagged for a closer look

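Values of 7 of 54 combinations of gene and class with 4 to 6 mice stood apart from the other mice, and chance gives about 1 in 20. In glutamatergic-like cells placebo mouse 3, with 16 such cells, was lowest for Nlgn1 (64.2 CPM, next 108) and highest for Nlgn3 (128 CPM, next 85.4), and placebo mouse 1 was lowest for Lrrtm1 (223 CPM, next 249). In other glutamatergic-like cells placebo mouse 3, with 8 cells, was highest for Nlgn2 (225 CPM, next 105) and Nlgn3 (128 CPM, next 75.1). A single UMI made EPO mouse 2 stand apart for Nlgn2 in astrocyte-like cells (28 CPM, all others 0) and placebo mouse 1 for Lrrtm4 in oligodendrocyte-like cells (4.56 CPM, all others 0).

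Barcodes outside the comparisons also carried these genes. The 5027 barcodes that were not retained held 1743 UMIs of the 9 genes. Among them Nrxn3 was at 208 CPM, Nrxn2 at 147 CPM, Nlgn1 at 68 CPM and Lrrtm3 at 11.6 CPM.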

How the results depend on the processing

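Of 845 values under alternatives, 727 were fold changes of single genes, and the other 118 were numbers of called genes or the ratio. Among the 727, 24 changed sign, and 27 more did so with 1 mouse left out. Without a change of sign, 9 lost a call and 4 gained one, and 9 more lost a call with 1 mouse left out. Calls between glutamatergic-like and oligodendrocyte-like or GABAergic-like cells held for each of the 9 genes that was called, as did those of Nrxn3 and Lrrtm1 against astrocyte-like cells and of Lrrtm3 between glutamatergic-like cells, under every alternative run. Some alternatives could not change a call. Clustering at resolution 0.6 gave the main clusters again, and the other clusterings gave the same numbers of called genes in every comparison between classes. The number of genes called moved with no filter on low counts to 52 (EPO, all cells), 11 (EPO, glutamatergic-like cells), 5643 (against oligodendrocyte-like), 1274 (against GABAergic-like), 3568 (against astrocyte-like) and 553 (OPC-like), where more genes were tested. It moved to 1 with DESeq2 and to 1 with the D number as a block (EPO, all cells), to 377 (GABAergic-like) and 397 (CA1 pyramidal-like) with limma, and to 2221 with at least 10 cells (astrocyte-like). Leaving out 1 mouse gave 0 to 7 calls for EPO in glutamatergic-like cells, 7 without placebo mouse 5, and 767 to 2247 against astrocyte-like cells, 2247 without placebo mouse 3. Beyond the added genes or fewer mice, the cause was not tested.

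With total UMIs as the scale, calls against oligodendrocyte-like cells were 2133 higher and 1055 lower (main 1665 and 1360), against astrocyte-like cells 762 and 230 (main 527 and 369), and in OPC-like cells 280 and 146 (main 146 and 204), the median gene moving from -0.02 to 0.46 in the last.

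Values that changed sign were not called on either side, except Nrxn2 against astrocyte-like cells (0.025 with no filter). After EPO over all cells, Nrxn2 turned to 0.0089 with total UMIs and to 0.0011 without shared barcodes, and leaving out 1 mouse gave -0.22 to 0.17 for Nrxn2 and -0.028 to 0.14 for Lrrtm2. In glutamatergic-like cells, Nrxn3 turned to 0.032 with no filter, 0.023 with total UMIs and 0.094 with the D block, and Nlgn3 to -0.093 with limma and -0.033 without shared barcodes. Leaving out 1 mouse there gave -0.14 to 0.20 for Nrxn3, -0.17 to 0.24 for Nlgn3, -0.32 to 0.048 for Nrxn2, -0.029 to 0.53 for Lrrtm4 and -0.099 to 0.44 for Nlgn2. Against GABAergic-like cells, values with no filter were 0.090 for Nrxn2, 0.33 for Nlgn3, 0.20 for Lrrtm3 and 0.24 for Lrrtm4, with limma 0.76, 0.53 and 1.01 for the last 3, with total UMIs 0.058 for Nlgn3 and 0.0037 for Lrrtm4, with DESeq2 0.012 for Nlgn3, and for Nlgn2 -0.084 with at most 20% mt- UMIs and -0.053 without shared barcodes. Leaving out 1 mouse gave -0.21 to 0.27 for Nlgn3, -0.76 to 0.81 for Lrrtm3, -0.23 to 0.072 for Lrrtm4 and -0.11 to 0.17 for Nlgn2. In CA1 pyramidal-like cells Nlgn2 turned to -0.097 with limma and -0.0042 without shared barcodes (-0.050 to 0.10 with 1 mouse left out), and Nrxn3 to -0.082 with all variable genes and -0.0038 with at least 10 cells (-0.11 to 0.17).

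The ratio of neurexin to partner UMIs in glutamatergic-like cells stayed at 0.756 to 0.809 under every alternative. For OPC-like cells, at least 10 cells per mouse and leaving out a mouse left fewer than 3 mice and gave no value. Alternatives without shared barcodes, at resolution 2 and with total UMIs were chosen after seeing the data. No paired analysis by replicate number was possible because the treatment groups share none. The 43 cells of placebo mouse 3 limit every placebo mean, and 9 to 25 UMIs of each partner limit the GABAergic-like values.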
